A study of Mus musculus with 4 samples.

Results

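ATF4 and 17 of its targets outside tRNA charging, together with 20 genes for cytosolic aminoacyl-tRNA synthetase subunits, are described here in a mouse macrophage line, RAW264.7, either kept with CT26, a colon carcinoma line of the same species (coculture), or kept alone (mock). These 38 genes were taken by symbol from the 22554 gene names found once in each of 2 deposited tables. All 38 were found, the methionyl synthetase as Mars1. Both groups hold 2 libraries. Replicate 1 of each group shares one table and is called pair 1, and replicate 2 shares the other and is called pair 2. The duration of coculture, whether the cells touched and how the macrophages were recovered were not given in the sources used here. It is not stated that the replicates were separate cultures, so p-values measure only how these libraries vary, which may be technical.

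ATF4 is the transcription factor at the end of the integrated stress response. Kinases that sense uncharged tRNA, unfolded protein, double-stranded RNA or heme shortage phosphorylate eIF2 alpha, which lowers translation in general but raises translation of the Atf4 mRNA, so the factor is controlled largely at the level of protein. ATF4 then binds CEBP-ATF response elements in genes for amino acid import, serine, proline and asparagine synthesis, mitochondrial folate metabolism, tRNA charging and feedback. Each cytosolic synthetase joins an amino acid to its tRNA.

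The core of the response element, TGATGNAA on either strand, was present near the start of many of these genes. Among 30 genes with a RefSeq promoter window (250 bases before to 50 after the annotated start, build GRCm38.p6), 11 held it, which is 36.7%, against 4.51% of all 27025 genes with a window and 2.62% of the 8249 tested genes with one. The share was 35.3% for the 17 genes outside tRNA charging that had a window, Atf4 among them, and 38.5% for 13 synthetases. Slc7a5, Cars, Hars, Lars, Nars, Rars, Vars and Wars had no entry. The stretches below carry the match upstream of the start in expressed genes. They were picked for the match, so they share these letters by selection. Capitals mark the match, and each runs 5′ to 3′ on the gene's strand.
Asns (chr6:7693210-7693248, minus strand): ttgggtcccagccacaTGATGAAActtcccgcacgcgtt
Chac1 (chr2:119351033-119351072, plus strand): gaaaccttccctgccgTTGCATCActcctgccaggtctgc
Nupr1 (chr7:126625557-126625596, minus strand): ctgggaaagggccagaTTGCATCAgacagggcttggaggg
Pycr1 (chr11:120643828-120643867, minus strand): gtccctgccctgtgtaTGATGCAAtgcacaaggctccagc
Aars (chr8:111033714-111033753, plus strand): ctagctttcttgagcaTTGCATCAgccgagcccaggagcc
Gars (chr6:55037955-55037994, plus strand): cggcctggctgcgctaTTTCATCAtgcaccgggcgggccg
Tars (chr15:11399659-11399689, minus strand): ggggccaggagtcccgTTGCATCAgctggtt
Further matches lay downstream of the start in Trib3, Iars and Yars, with a second one in Aars, and upstream in Vldlr, which stayed under 1 FPKM. A match is a description of the letters only.

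Levels are in FPKM, a read count divided by gene length and by the size of the library. The steps of the low values gave an estimated 12200000 to 16200000 reads in each library, with 9927 to 10084 genes at 1 FPKM or more. Of 10 macrophage markers 9 were expressed, all but Mertk. Their summed level, 10024 and 13066 FPKM in coculture and 9596 and 5941 FPKM in mock, rested mainly on Lyz2, with 6585 and 10287 FPKM in coculture and 7088 and 3529 FPKM in mock. Of the 9, 3 were higher and 5 lower in both pairs. On the log2 scale described below their median difference was -0.13, in a range from -0.60 for Fcgr3 to 1.60 for Cd14. The part of these markers in the results was not tested. None of 16 epithelial and mesenchymal markers, which stand for carcinoma cells here, reached 1 FPKM in any library. Their epithelial sum was 0.045 to 0.166 FPKM in coculture and 0 to 0.0982 FPKM in mock, their mesenchymal sum was 0.028 to 0.290 FPKM in coculture and 0.073 to 0.641 FPKM in mock, and Epcam and Krt18 were listed at 0 in all 4 libraries. In bulk RNA, a difference in the number of cells of one type and a difference in RNA per cell cannot be told apart.

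A gene was tested if 2 or more libraries reached 1 FPKM, which 10202 did, 37 of the 38 among them. Vldlr, a lipoprotein receptor gene, was the exception, at 0.00742 FPKM in coculture 1 and 0.00784 FPKM in mock 1, and listed at 0 in both libraries of pair 2. Each difference below is log2(FPKM + 1) in coculture less that in mock, averaged over the 2 pairs, a scale that understates the change of low genes. It carries limma's moderated SE, which borrows spread across genes.

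None of these 37 genes passed the test in macrophages cocultured with CT26 cells, and most of their differences were small. Slc7a11, an amino acid response gene outside this list, differed more, by 2.06 (limma adjusted p = 0.0544), and is described below. None of the 37 reached significance by limma at a Benjamini-Hochberg adjusted p under 0.05 with the pair as a block (0 higher and 0 lower), while 0.127% of all genes tested did, 13 higher and 0 lower, or 85 higher and 18 lower when libraries were centred on their medians. At an unadjusted p under 0.05, 3 were higher (Chac1, Nupr1 and Slc3a2) and 0 lower, or 8.11% and 0%, against 5.26% and 9.45% of all genes. That tally moved with the processing, to 5 higher and 0 lower after median centring, 0 and 2 with no filter on low values, and 0 and 0 with no replicate block. No gene of the 37 was 2-fold different in both pairs, or in either pair alone, on this scale, where 1.02% of all genes were 2-fold higher and 0.353% were 2-fold lower in both. For 35 of the 37 the 95% interval of the difference lay wholly within 2-fold in either direction, against 86.2% of all genes. All 20 synthetases were among them, and the exceptions were Chac1 and Nupr1.

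**Figure D1:**
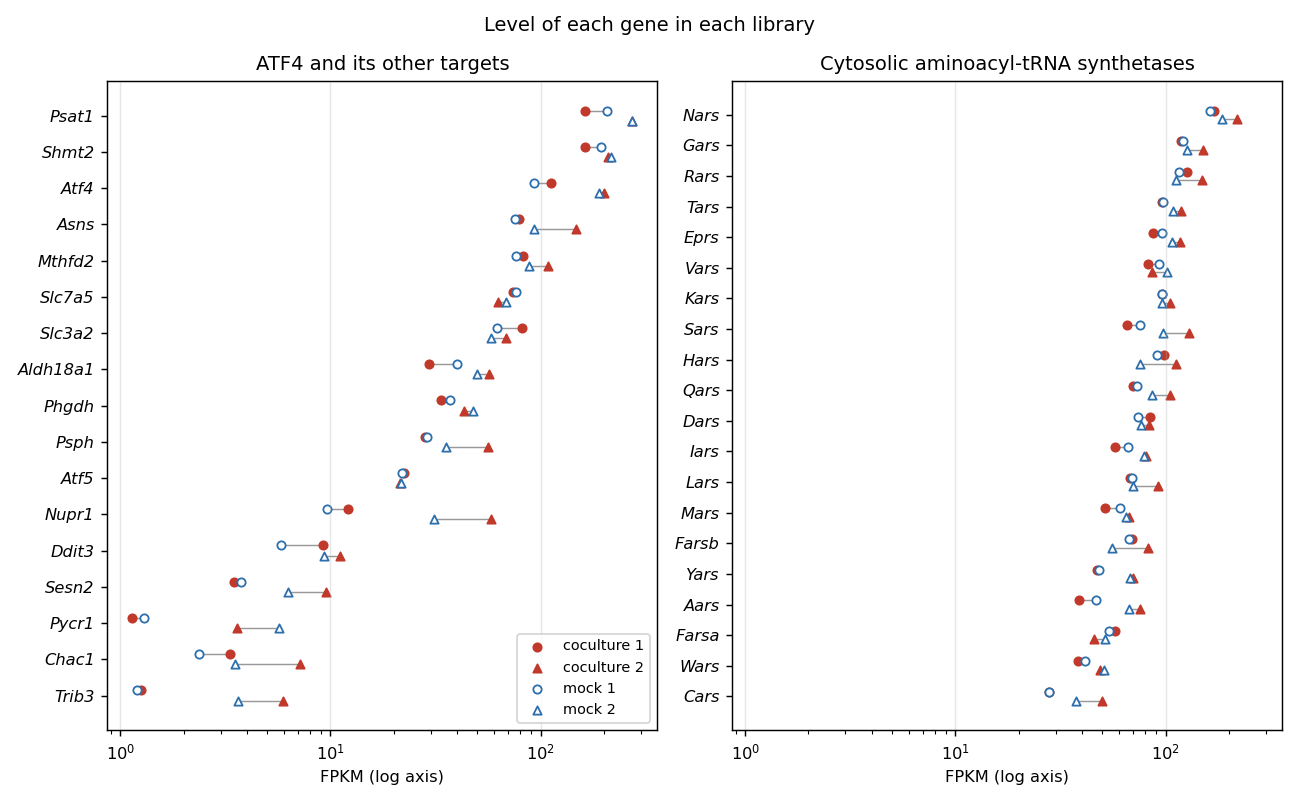
Level of 37 expressed genes in each library, in FPKM on a log axis, for ATF4 and its other targets (left) and the cytosolic synthetases (right). Filled red symbols are coculture and open blue symbols mock, circles are pair 1 and triangles pair 2, and grey lines join the libraries of a pair. Synthetases span 27.8 to 218 FPKM, while Trib3, Chac1, Pycr1 and Sesn2 stay under 10 FPKM in every library.

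Among the transcription factors, Atf4 itself stood at 112 and 199 FPKM in coculture 1 and 2, against 93.4 and 191 FPKM in mock 1 and 2. Coculture was above mock within each pair, by 20.3% in pair 1 and 4.59% in pair 2, but the gap between the mock libraries was wider than either, and the groups overlapped. The difference of 0.16 ± 0.12 had a 95% interval of -0.16 to 0.49 (limma adjusted p = 0.567).

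Ddit3 encodes CHOP, a factor linked to cell death under prolonged stress. It had 9.27 and 11.1 FPKM in coculture and 5.83 and 9.32 FPKM in mock, a difference of 0.41 ± 0.17 (limma adjusted p = 0.370). Within each pair coculture was the higher, by 0.59 and 0.23, and coculture 1 lay just below mock 2, so the groups overlapped. Ddit3 shares 68 bases of exon with Mars on the opposite strand, which is 3.97% of its exon length in GENCODE M21.

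Nupr1, a small stress-induced chromatin protein gene, stood at 12.1 and 58.4 FPKM in coculture, against 9.67 and 31.2 FPKM in mock. It was 25.2% higher in pair 1 and 87.1% higher in pair 2, a difference of 0.59 ± 0.18 with an interval of 0.096 to 1.08 (limma adjusted p = 0.293). Both libraries of pair 2 were above both of pair 1, so the difference between the tables exceeded that between the groups. Atf5, a factor whose mRNA is translated under the same control as Atf4, was level, at 22.3 and 21.3 FPKM in coculture and 22.0 and 21.8 FPKM in mock (difference -0.0063 ± 0.12).

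The feedback and stress effectors were low in abundance, and all 3 were higher in coculture in pair 2. Chac1, which encodes a glutathione-degrading enzyme, had the largest difference of the 37 genes, 0.61 ± 0.21 (interval 0.059 to 1.17, limma adjusted p = 0.310). It stood at 3.34 and 7.19 FPKM in coculture and at 2.37 and 3.51 FPKM in mock, a ratio of 1.41 in pair 1 and 2.05 in pair 2. The 4 values rest on about 89 and 144 reads in coculture and about 59 and 91 in mock, so their counting error is wide beside that of the synthetases.

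Trib3, a pseudokinase gene that feeds back on ATF4, stood at 1.26 and 5.98 FPKM in coculture and 1.21 and 3.62 FPKM in mock. Its pair 1 values, about 44 and 39 reads, were near equal, and the difference of 0.32 ± 0.23 came from pair 2 (0.60, against 0.036 in pair 1). Sesn2, which encodes a leucine sensor upstream of mTORC1, was at 3.48 and 9.52 FPKM in coculture and at 3.75 and 6.28 FPKM in mock. Coculture was slightly below mock in pair 1 and above it in pair 2 (difference 0.22 ± 0.22).

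The enzymes of amino acid synthesis did not differ in one direction. Asns, the asparagine synthetase gene and a standard readout of ATF4 activity, stood at 79.0 and 148 FPKM in coculture, against 75.6 and 92.7 FPKM in mock. Coculture 2 stood apart from the other libraries, which lay within 75.6 to 92.7 FPKM; the difference was 0.36 ± 0.18, or 0.063 in pair 1 and 0.67 in pair 2 (limma adjusted p = 0.420).

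The serine pathway runs from Phgdh through Psat1 to Psph. Phgdh, its entry enzyme, was lower in both pairs by a similar amount, at 33.7 and 43.3 FPKM in coculture and 37.2 and 47.5 FPKM in mock (difference -0.14 ± 0.11). Psat1 was among the most abundant of the 37 genes, with 162 and 274 FPKM in coculture and 207 and 272 FPKM in mock. It was 21.8% lower in pair 1 and level in pair 2, where its difference was 0.012. The last step, Psph, went the other way in pair 2: 28.1 and 56.4 FPKM in coculture, against 29.0 and 35.4 FPKM in mock (difference 0.31 ± 0.20, limma adjusted p = 0.530). Psph shares 10.4% of its exon bases with Cct6a on the opposite strand, and whether the authors' counting used strand is not given in the sources used here.

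Shmt2 and Mthfd2 encode successive steps of mitochondrial folate metabolism, which takes up serine. Shmt2 stood at 163 and 210.5 FPKM in coculture and at 195 and 215 FPKM in mock, lower in both pairs (difference -0.14 ± 0.12). Mthfd2 was higher in both, at 82.3 and 108 FPKM in coculture and 76.4 and 87.8 FPKM in mock (difference 0.20 ± 0.12). Their intervals, -0.48 to 0.19 and -0.11 to 0.52, overlapped.

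In proline synthesis, Aldh18a1, the first step, was at 29.6 and 57.0 FPKM in coculture and at 40.2 and 49.9 FPKM in mock. It was lower in pair 1 and higher in pair 2 (-0.43 and 0.19). Pycr1, the last step in mitochondria, had the lowest difference of the 37, -0.32 ± 0.21 (interval -0.89 to 0.24, limma adjusted p = 0.533). Coculture was below mock in both pairs, at 1.14 and 3.60 FPKM in coculture against 1.30 and 5.69 FPKM in mock. Over the 8 enzymes the median difference was -0.13, with 2 higher in both pairs, 3 lower in both and 3 in opposite directions.

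Slc3a2 and Slc7a5 encode the heavy and light chains of the LAT1 transporter for large neutral amino acids. Slc3a2, which also pairs with other light chains such as the cystine transporter Slc7a11, stood at 81.7 and 68.5 FPKM in coculture, against 61.8 and 58.4 FPKM in mock. Both coculture libraries were above both mock libraries, which held for 5 of the 37 genes (Slc3a2, Dars, Farsb, Hars and Rars) and 10.3% of all genes tested. The reverse held for 1 (Vars) and 21.5% of all. Overlap of the groups, here and elsewhere, is judged across the tables, which may have been normalized separately. The Slc3a2 difference of 0.31 ± 0.12 had an interval from 0.0021 to 0.62 (limma adjusted p = 0.338). Slc7a5 was lower in both pairs, at 74.2 and 62.8 FPKM in coculture and 76.2 and 68.1 FPKM in mock (difference -0.077 ± 0.11).

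**Figure D2:**
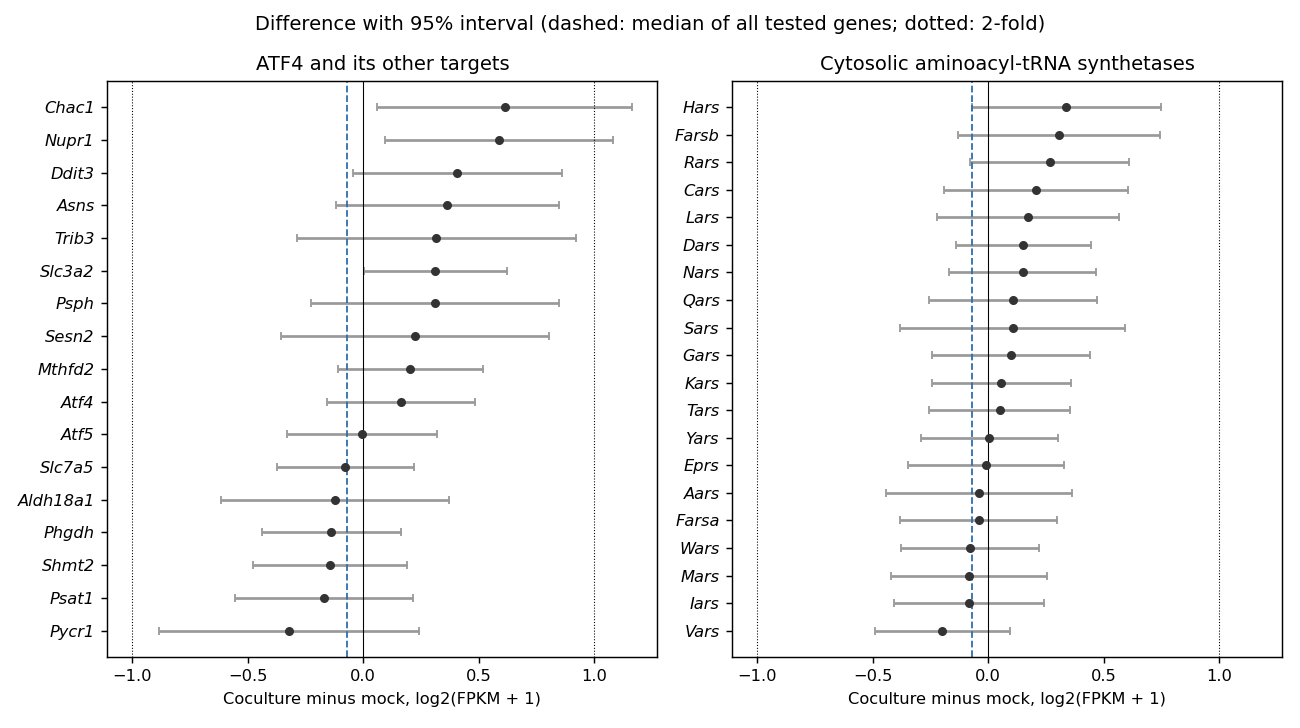
Coculture minus mock difference of each gene on the log2(FPKM + 1) scale, as the mean of 2 pairs with limma's 95% interval, for ATF4 and its other targets (left) and the synthetases (right). The dashed line is the median of all tested genes, -0.072, and dotted lines mark 2-fold; only the upper ends of Chac1 and Nupr1 pass 2-fold.

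The synthetases spanned a narrower range than Atf4 and its other targets. The ends of that wider range, Chac1 and Pycr1, were among the genes with the fewest estimated reads. Nupr1 at 0.59, Ddit3 at 0.41 and Asns at 0.365 also lay above every synthetase, while only Pycr1 lay below them all. Asns rests on about 3174 to 4944 reads in each library. The part of read number in the width of the range was not tested. Differences of the synthetases ran from -0.20 for Vars to 0.34 for Hars, with SE of 0.11 to 0.18. The lowest limma adjusted p among the synthetases was 0.399. No interval reached below -0.49 or above 0.75. Their median was 0.078, beside 0.20 for the other targets with Atf4 included and -0.072 for all genes tested. These medians were -0.038, 0.017 and -0.089 within pair 1, and 0.15, 0.23 and -0.056 within pair 2. The medians depended on single libraries. Without coculture 2, unblocked and so across the tables, they were -0.14 for synthetases and -0.25 for the other targets, and without mock 1 they were -0.0095 and -0.086. Without coculture 1 they were 0.28 and 0.40, and without mock 2 they were 0.17 and 0.45.

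Of the 20 synthetases, 6 were higher in both pairs (Cars, Dars, Farsb, Hars, Nars and Rars), 2 were lower in both (Vars and Wars) and 12 went in opposite directions. Of the other 17 genes, Atf4 among them, 8 were higher in both, 4 lower in both and 5 opposite. Among all genes tested 21.5% were higher in both pairs and 42.2% lower in both. In pair 1 alone 7 synthetases were higher in coculture, and in pair 2 it was 17, against 37.4% and 41.6% of all genes.

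Hars, the histidyl enzyme, stood at 98.8 and 113 FPKM in coculture, against 91.5 and 75.8 FPKM in mock, so its groups did not overlap. Farsb, the beta subunit of the phenylalanyl enzyme, was at 69.4 and 82.3 FPKM in coculture and at 67.1 and 55.4 FPKM in mock, again apart. Within pair 1 Farsb differed by only 0.048, and within pair 2 by 0.56. Farsa, the alpha subunit of the same enzyme, was near level on average: 57.5 and 45.6 FPKM in coculture, against 54.0 and 51.6 FPKM in mock. The Farsb difference was 0.31 ± 0.16 and the Farsa difference -0.042 ± 0.13 (0.024 when libraries were centred on their medians), and the contrast between the subunits was not tested. Hars shares 7.97% of its exon bases with Hars2 and Farsb 9.47% with Sgpp2, both on the opposite strand.

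Rars, the arginyl enzyme, stood at 127 and 149 FPKM in coculture and at 116 and 112 FPKM in mock, again without overlap (difference 0.27 ± 0.13, limma adjusted p = 0.412). Dars, the aspartyl enzyme, likewise did not overlap, with 84.5 and 83.5 FPKM in coculture and 74.3 and 76.7 FPKM in mock (difference 0.15 ± 0.11). Unlike most synthetases, Dars gave a similar difference in both pairs, 0.18 and 0.12.

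At the other end, Vars, the valyl enzyme, stood at 82.8 and 86.3 FPKM in coculture, against 93.2 and 101 FPKM in mock, lower in both pairs and without overlap (difference -0.20 ± 0.11, limma adjusted p = 0.465). Wars, the tryptophanyl enzyme, was at 38.2 and 48.9 FPKM in coculture and 41.4 and 50.7 FPKM in mock (difference -0.080 ± 0.11). The gap between the libraries of one group was wider than that between groups for Wars.

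Nars, the asparaginyl enzyme and the most abundant synthetase per length, had 171 and 218 FPKM in coculture and 163 and 185 FPKM in mock. Cars, the cysteinyl enzyme and the least abundant, was level in pair 1 and higher in pair 2, at 27.9 and 50.1 FPKM in coculture and 27.8 and 37.5 FPKM in mock. Sars, the seryl enzyme, had the widest disagreement between pairs, -0.20 and 0.42, with 65.5 and 129 FPKM in coculture and 75.4 and 96.8 FPKM in mock. Its SE of 0.18 was the largest of the 20.

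Gars, the glycyl enzyme, and Aars, the alanyl enzyme, have an upstream match printed above, as does Tars. Gars stood at 118 and 150.2 FPKM in coculture and at 121 and 127 FPKM in mock. Aars stood at 38.9 and 76.0 FPKM in coculture and 46.7 and 67.1 FPKM in mock, and shares 14.3% of its exon bases with Exosc6 on the same strand. Both were lower in pair 1 and higher in pair 2. The remaining synthetases, Eprs, Iars, Kars, Lars, Mars, Qars, Tars and Yars, differed by -0.085 to 0.17, each in opposite directions in the pairs.

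Of these, Lars, the leucyl enzyme, stood at 67.6 and 92.1 FPKM in coculture and at 69.6 and 70.3 FPKM in mock, so that coculture 2 stood apart. Qars, the glutaminyl enzyme, had 70.1 and 105 FPKM in coculture and 73.3 and 86.3 FPKM in mock, with both libraries of pair 2 above both of pair 1. Iars, the isoleucyl enzyme, had 57.5 and 80.9 FPKM in coculture and 66.2 and 79.2 FPKM in mock. For Iars the shortfall in pair 1 was the larger of the pair differences, and the same was seen for the methionyl enzyme Mars, at 51.7 and 67.2 FPKM in coculture and 60.5 and 64.7 FPKM in mock. Eprs, which joins the glutamyl and prolyl enzymes in one chain, was at 87.4 and 117 FPKM in coculture and at 96.7 and 107 FPKM in mock.

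Kars, the lysyl enzyme, differed little between any of its libraries, with 95.9 and 105 FPKM in coculture and 96.4 FPKM in each mock library. Tars, the threonyl enzyme, stood at 96.0 and 119 FPKM in coculture and at 97.8 and 109 FPKM in mock. Yars, the tyrosyl enzyme, was at 47.0 and 70.4 FPKM in coculture and at 48.3 and 68.0 FPKM in mock. In Tars and Yars pair 2 was above pair 1 in both groups, and the difference between groups was smaller than that gap.

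Synthetases can also be sorted by structure and assembly, a textbook grouping added after the values were seen. The 9 enzymes of class I had a median difference of 0.0053, and the 10 genes of class II 0.10; Eprs joins one enzyme of each class. The 8 in the multi-synthetase complex (Dars, Eprs, Iars, Kars, Lars, Mars, Qars and Rars) had a median of 0.082 and the 12 outside it 0.074. In pair 2, 8 of 8 inside the complex and 9 of 12 outside it were higher in coculture, and in pair 1 it was 2 of 8 and 5 of 12.

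By promoter match the medians were close together. The 10 tested genes with the match had a median difference of 0.074 and the 19 without it 0.11. Both the highest and the lowest of the 37 differences, Chac1 and Pycr1, were in genes with a match upstream of the start.

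**Figure D3:**
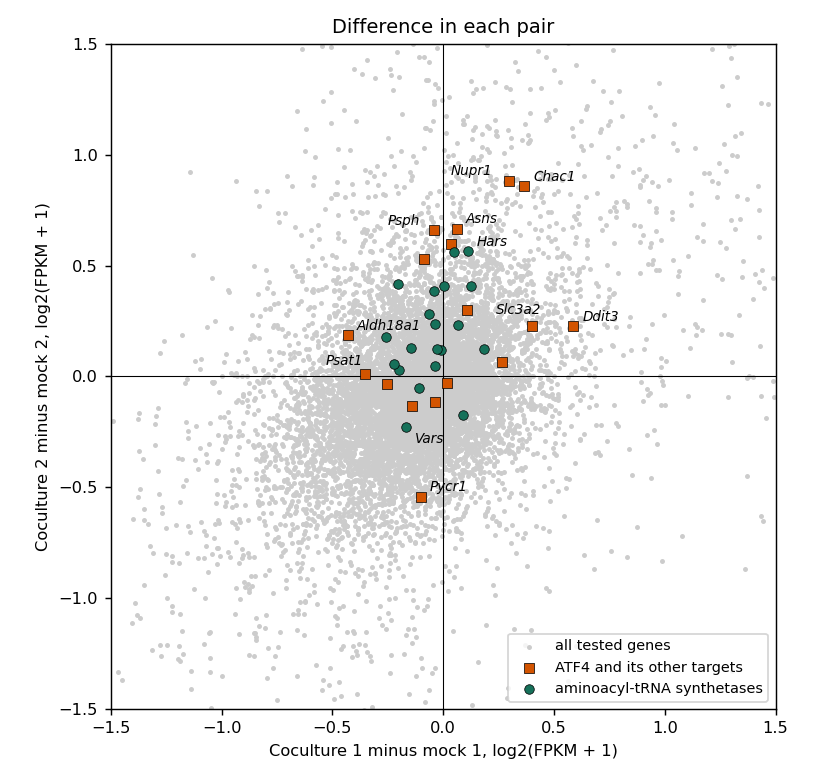
Coculture minus mock difference in pair 1 (horizontal) and pair 2 (vertical) on the log2(FPKM + 1) scale. Grey points are the 10202 genes tested, of which 323 lie beyond the axis limit of 1.5 in a pair and are not shown; orange squares are ATF4 and its other targets and green circles the synthetases. Synthetases sit within -0.26 to 0.18 on the horizontal axis and -0.23 to 0.57 on the vertical.

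For most of these genes, as for most of all genes tested, the mock libraries differed from each other by more than coculture differed from mock. The mock gap is a single difference, while the coculture difference is a mean of 2 pairs in which opposite signs cancel. These measures are unlike, so their comparison is a description only. Mock 2 was above mock 1 for 15 of the 20 synthetases and 14 of the other 17 genes, against 5523 of all 10202 genes. The median gaps were 0.13 and 0.34 on the log2(FPKM + 1) scale, beside 0.038 for all genes. The gap between mock libraries exceeded the size of the coculture difference in 12 of 20 synthetases and 12 of 17 other targets, against 6239 of all 10202 genes. Pycr1 was 4.39 times, Nupr1 3.22 times and Atf4 2.04 times as high in mock 2 as in mock 1. The tables differ in annotation and may have been normalized separately, so a gap from processing and a difference between the cultures cannot be told apart.

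Neighbouring steps of the pathway gave the context. Of 8 genes for the eIF2 alpha kinases and their partners, 0 passed limma in either direction, with a median of -0.11. At an unadjusted p under 0.05 there were 0, against 5.26% higher and 9.45% lower among all genes. Eif2ak3, which encodes the unfolded protein sensor PERK, stood at 5.21 and 8.92 FPKM in coculture and at 9.13 and 9.20 FPKM in mock (difference -0.37 ± 0.22). Eif2ak4, which encodes GCN2, the sensor of uncharged tRNA, was at 6.32 and 11.6 FPKM in coculture and 8.04 and 13.3 FPKM in mock (difference -0.25 ± 0.15, which took the opposite sign without coculture 1 or mock 2). Eif2s1, the gene of eIF2 alpha itself, was at 106 and 88.8 FPKM in coculture and at 86.1 and 83.5 FPKM in mock (difference 0.19 ± 0.12).

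The other amino acid response genes were more scattered. Of 24 listed, 23 were found in both tables and 20 were tested, of which 0 passed limma. At an unadjusted p under 0.05, 3 were higher (Slc7a11, Cebpb and Gadd45a) and 1 lower (Atf3). These are 15% and 5% of the 20, against 5.26% and 9.45% of all genes tested. Slc7a11, the cystine transporter gene, stood at 49.3 and 24.0 FPKM in coculture and at 13.0 and 4.19 FPKM in mock. It differed by 2.06 ± 0.16 (limma adjusted p = 0.0544), larger than any of the 37 and over 2-fold in both pairs. It passed under 3 of 12 alternatives, with an adjusted p of 0.0424 at a filter of 5 FPKM, 0.0422 after rescaling and 0.0114 after median centring, in a range of 0.0114 to 0.9999 over all of them. Gadd45a, a growth arrest gene, had 8.91 and 1.47 FPKM in coculture and 0.904 and 0.570 FPKM in mock (difference 1.52 ± 0.45). Cth, which makes cysteine, stood at 2.50 and 12.7 FPKM in coculture and at 2.17 and 1.73 FPKM in mock, so that coculture 2 alone was high. Cebpb and Atf3 are described for the tally alone, chosen after their values were seen. Cebpb, a partner of ATF4 on its response elements, had 105 and 91.0 FPKM in coculture and 73.0 and 50.5 FPKM in mock (difference 0.68 ± 0.13, limma adjusted p = 0.182). Atf3, a stress-induced factor downstream of ATF4, had 3.34 and 11.8 FPKM in coculture and 4.68 and 33.6 FPKM in mock (difference -0.91 ± 0.29, limma adjusted p = 0.294), and without mock 2 its difference was 0.39. The median of the 20 was -0.084, close to that of all genes.

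Mitochondrial synthetases and the glutamyl-tRNA amidotransferase genes had a lower median than their cytosolic relatives. It was -0.19 over both pairs, with -0.17 in the first and -0.12 in the second. Coculture was below mock in each pair for 11 of 20, beside 2 of the 20 cytosolic genes and 42.2% of all genes. None of the 20 passed limma. At an unadjusted p under 0.05, 1 was higher and 2 lower, or 5% and 10%, near the 5.26% and 9.45% of all genes. Gatc, a subunit of the amidotransferase, was at 18.2 and 20.6 FPKM in coculture and at 24.4 and 31.0 FPKM in mock, without overlap (difference -0.49 ± 0.13, limma adjusted p = 0.244). Cars2 also lay lower, with 11.8 and 11.3 FPKM in coculture and 16.2 and 15.3 FPKM in mock (difference -0.41 ± 0.13). Lars2 went the other way, at 35.5 and 35.9 FPKM in coculture against 23.9 and 28.8 FPKM in mock (difference 0.43 ± 0.13).

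Among 3 scaffold genes of the multi-synthetase complex 0 passed limma. At an unadjusted p under 0.05, 1 was higher and 0 lower, against 5.26% and 9.45% of all genes. Eef1e1 stood at 124 and 103 FPKM in coculture and at 95.3 and 80.7 FPKM in mock, with nearly the same difference in each pair, 0.38 and 0.34 (limma adjusted p = 0.284). Aimp1 and Aimp2 differed by -0.043 and -0.031, or 0.023 and 0.034 after median centring. Of 8 sister enzymes in folate and proline metabolism 7 were tested and 0 passed limma (0 at an unadjusted p under 0.05). Shmt1, the cytosolic counterpart of Shmt2, and Mthfd2l, a relative of Mthfd2, each differed by 0.21.

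**Figure D4:**
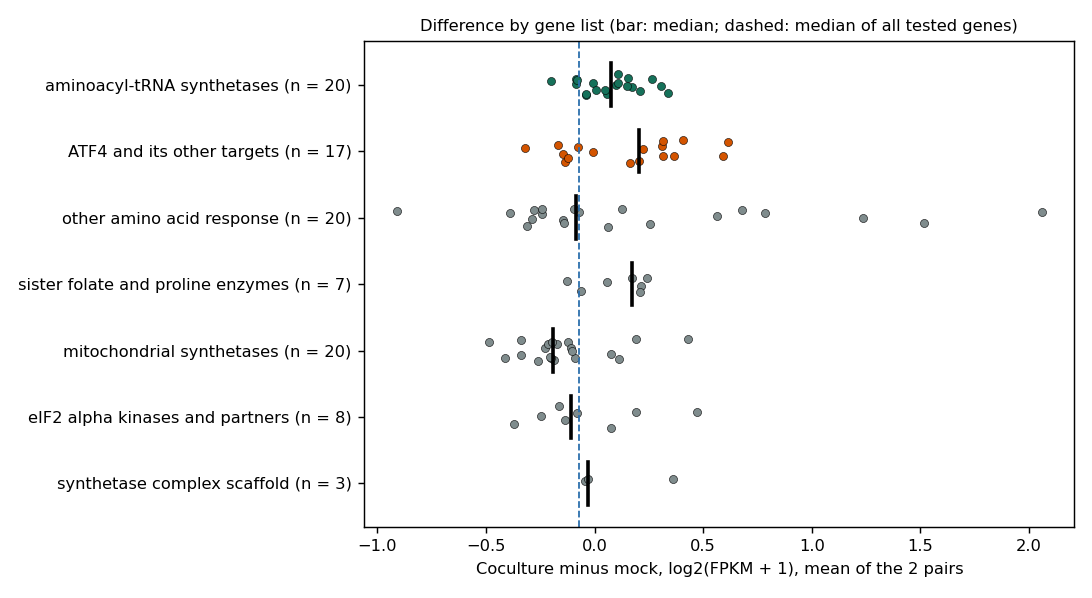
Coculture minus mock difference of each tested gene (points) by gene list, on the log2(FPKM + 1) scale as the mean of 2 pairs; black bars are medians and the dashed line the median of all tested genes. Points are jittered vertically. The cytosolic synthetases form a narrow band around 0.078, the mitochondrial ones center at -0.19, and Slc7a11 stands alone at 2.06.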

How the data were processed

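RNA of 4 libraries was sequenced after a Vazyme VAHTS mRNA-seq v2 preparation, per the labels' protocols. The authors deposited FPKM in 2 tables, one per replicate number. Trim Galore, Subread and featureCounts and the human build hg38 are named in the submitters' processing notes, although the symbols are those of mouse. Versions, annotation, gene lengths, totals and strand setting were not given in the sources used here. Removed from the table of pair 1 were 23 unnamed rows and 287 rows under 106 repeated names, with at most 1.07% of a library's FPKM. Values were not rescaled before log2(FPKM + 1) was taken, and no count test was run on FPKM. Genes with at least 1 FPKM in 2 libraries were fitted in limma 3.58.1 (R 4.3.3; trended prior variance, two-sided) with the pair as a block, since each pair has its own table. Residual degrees of freedom were 1, with 3.43 added by the prior. Libraries of a pair deviated together from their group means (correlation across genes 0.76). Reads were estimated from the steps of low FPKM and GENCODE M21 exon lengths, and cover counting error only. The fit was tested on simulated data. Of 50 genes with a simulated log2 difference of 1 it called 64%, and of 10002 with none it called 17. A difference of that size can therefore be missed. The simulated spread was drawn at random across genes, so these shares do not carry over to any 1 gene. Promoters are from RefSeq, GRCm38.p6. Genes and lists were chosen with earlier results of these data known; all 38 genes are named, and from each accessory list those called, or the 3 largest differences of the same sign in both pairs; 1 gene so chosen is not reported here.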

Additional observations from a re-analysis of the deposited data

How the results depend on the processing

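Under all 12 alternatives none of the 37 genes (Atf4, its targets and the synthetases) passed limma, and under the 8 that keep both pairs none was 2-fold different in both. Of the accessory genes, Slc7a11 passed under 3 alternatives and no other gene under any. Among all genes 13 were called higher and 0 lower; these became 22 and 0 with a pseudocount of 0.1, 0 and 0 with no filter on low values (1514 at an unadjusted p under 0.05), 25 and 1 with at least 5 FPKM, 25 and 1 after rescaling to a common total, 85 and 18 after median centring, and 1 and 0 without a trend. With no replicate block the count was 1 and 0. With any single library left out, unblocked, 0 genes were called (176 to 523 at an unadjusted p under 0.05), the synthetase median ran from -0.14 to 0.28 and that of the other targets from -0.25 to 0.45. These fits leave one group with a lone library, assumed to vary like the other group, and compare across tables; 2-fold differences in both pairs could not be counted in them. Centring moved the median of all genes by 0.066 and rescaling by -0.049. Signs near 0 turned under scaling: Tars (-0.0056) and Yars (-0.049) after rescaling, and Atf5 (0.059), Aars (0.026), Eprs (0.057), Farsa (0.024), Aimp1 (0.023) and Aimp2 (0.034) after centring. With a library left out, signs turned in the accessory genes Eif2ak4 (-0.64 to 0.14), Atf3 (-2.21 to 0.39), Aimp1 (-0.29 to 0.20) and Aimp2 (-0.27 to 0.21), and in 28 of the 37, over ranges of Psat1 -0.55 to 0.21, Phgdh -0.31 to 0.039, Shmt2 -0.33 to 0.039, Aldh18a1 -0.58 to 0.34, Pycr1 -1.09 to 0.45, Aars -0.51 to 0.44, Eprs -0.22 to 0.20, Iars -0.33 to 0.16, Mars -0.27 to 0.10, Wars -0.25 to 0.093, Atf4 -0.35 to 0.67, Asns -0.083 to 0.81, Trib3 -0.50 to 1.13, Sesn2 -0.39 to 0.84, Atf5 -0.037 to 0.024, Psph -0.18 to 0.80, Slc7a5 -0.20 to 0.042, Nupr1 -0.50 to 1.68, Cars -0.20 to 0.62, Farsa -0.21 to 0.12, Gars -0.074 to 0.27, Kars -0.0074 to 0.12, Lars -0.048 to 0.39, Nars -0.025 to 0.32, Qars -0.18 to 0.40, Sars -0.38 to 0.59, Tars -0.10 to 0.20 and Yars -0.28 to 0.29. Chac1, Ddit3, Dars, Farsb, Hars, Mthfd2, Rars, Slc3a2 and Vars kept theirs. At the estimated depth, Trib3, Chac1 and Pycr1 rest on the fewest reads.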
